A study of Mus musculus with 10 samples.

Results

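Nebulin, nebulette, the tropomyosins, the leiomodins and the tropomodulins lie along the actin filament of the sarcomere or set its length. The genes for 9 of these proteins, Neb, Nebl, Tpm1, Tpm2, Tpm3, Lmod2, Lmod3, Tmod1 and Tmod4, were picked by gene symbol, and all 9 were among the 23337 genes listed for every library. Left ventricle (LV) and skeletal muscle (SkM) were profiled by bulk polyA RNA-Seq in 5 mice, 2 WT and 3 E0del/+, with no treatment in the labels, which gave 10 libraries of 11010021 to 17484873 counts. E0del/+ mice lacked E0, an enhancer in the first intron of the titin gene Ttn, on 1 of the copies of Ttn, whereas WT mice carried E0 on both. All 5 mice were C57BL/6/129SvEv hybrids, bred from C57BL/6 E0del/+ and 129SvEv WT parents, so that the deletion lay on the C57BL/6 copy. The line had been made with Cas9 in C57BL/6J zygotes. The age and sex of these mice and the muscle sampled were not given in the sources used here. The labels give 3 batches: batches 1 and 2 each held a WT and an E0del/+ mouse, and batch 3 held E0del/+ replicate 3 alone, so that for this mouse batch and genotype cannot be told apart.

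Thin filaments are actin polymers whose groove is covered by tropomyosin, the coiled coil through which troponin governs access of myosin. In skeletal muscle the giant protein nebulin runs along most of the filament and stabilises it, while the heart has little nebulin and uses the short relative nebulette near the Z-disc. At the pointed end tropomodulins cap the filament and limit its growth, and leiomodins, their relatives, nucleate actin and favour longer filaments.

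The tissue labels were checked against marker genes, with levels in CPM, the counts of a gene scaled to the total of its library. The summed level of 7 ventricular genes, of which Myh6 was the most abundant, was 52410 to 76500 CPM in the 5 LVs and 71.3 to 347 CPM in the 5 SkM samples. The 9 fast-fibre genes, led by Myh4, summed to 108700 to 119900 CPM in SkM and to 113 to 128 CPM in 4 of the LVs. WT LV replicate 2 stood apart, with 26970 CPM of fast-fibre transcripts, and it also had the lowest ventricular sum (52410 CPM, against 65910 to 76500 CPM in the other LVs) and the highest sum of 5 adipose genes (372 CPM, against 119.8 to 262 CPM). In the other LVs Fabp4 made up most of that sum, at 117 to 243 CPM, while Cfd, the most abundant adipose gene over all libraries, was at 0.96 to 15.3 CPM there and at 158.7 CPM in WT LV replicate 2. For this reason the 4 other LVs describe the heart in what follows, the tissue comparison used the 4 other mice, and each result that rests on WT LV replicate 2 is given with and without it.

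Of the other cell types, 4 atrial genes, led by Nppa, summed to 202 to 594 CPM in LV, and 5 smooth-muscle genes, led by Smtn, to 493 to 761 CPM. The 3 endothelial genes, led by Cdh5, reached 733 to 1458 CPM in LV and 79.2 to 178 CPM in SkM, and the 4 fibroblast genes 698 to 1331 CPM and 113 to 381 CPM, with Dcn the most abundant of them in 4 of the 5 LVs and Col3a1 in 4 of the 5 SkM samples. Haemoglobin transcripts on the row Beta-s were at 103 to 134 CPM in LV and 10.8 to 96.8 CPM in SkM, while Hba-a1 and Hba-a2, near-identical copies that reads may not separate, had 0 counts in all 10 libraries. Every gene of the other lists had a row and was counted in at least 1 library.

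In the 4 LVs, Tpm1 was the most abundant of the 9 genes per transcript length, at 1238 ± 108 RPKM (CPM per kb of exon; mean ± SD, n = 4), followed by Lmod2 at 330.1 ± 132 RPKM and Tmod1 at 82.7 ± 17.7 RPKM. Lmod3, Nebl and Tmod4 came next at 43.2, 39.6 and 25.6 RPKM, then Tpm3 at 13.6 to 22.7 RPKM, and the ranges of neighbours in that stretch overlapped. Tpm2 (7.90 ± 2.33 RPKM) and Neb (1.28 ± 0.21 RPKM) were the lowest. In the 5 SkM samples the order per length was Tpm1 (2379 ± 662 RPKM), Tpm2 (1532 ± 198 RPKM), then Neb (506 ± 122 RPKM) and Tmod4 (438 ± 71.9 RPKM), whose ranges overlapped. Tmod1, Tpm3, Lmod3 and Lmod2 followed at 78.7, 41.7, 41.7 and 32.6 RPKM with overlapping ranges between neighbours, and Nebl was last at 0.0848 ± 0.0576 RPKM. Together the 9 genes took 0.491% to 0.585% of counts in the 4 LVs, 0.876% in WT LV replicate 2 and 2.15% to 2.49% in SkM.

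**Figure D1:**
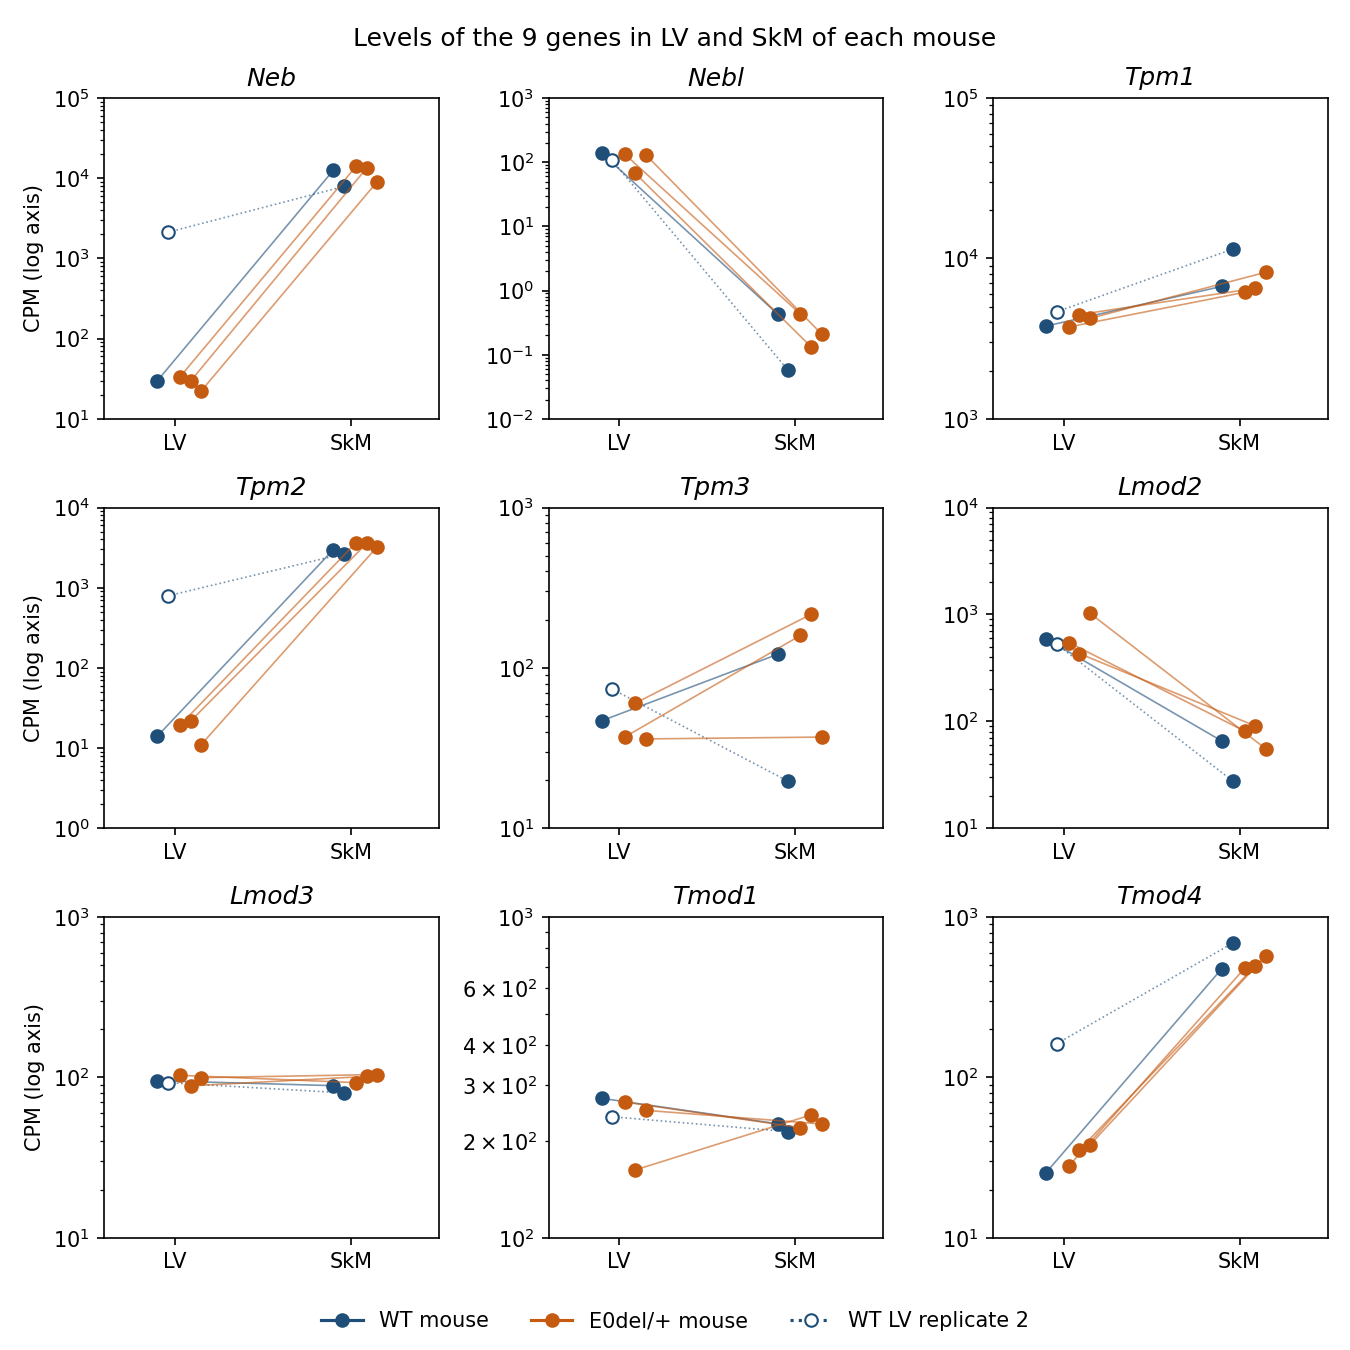
Levels of the 9 genes in LV and SkM of each mouse, in CPM on log axes, with lines joining the tissues of a mouse and an open circle for WT LV replicate 2. Neb, Tpm2 and Tmod4 were higher in SkM of every mouse, Nebl and Lmod2 were higher in LV, and Lmod3 and Tmod1 lay at similar CPM in both tissues, with log2 differences of 0.65 and 0.62 on TMM scaling and of 0.00 and -0.03 on total counts.

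SkM was compared with LV within the 4 mice (1 WT, 3 E0del/+) to ask how the tissues differ in their thin-filament genes. Of 13375 genes tested with edgeR, 8202 (61.3%) passed an adjusted p of 0.05, 29.8% higher and 31.5% lower in SkM, and of the 9 members 7 were higher and 2 lower. A change in the share of cells of a type and a change in RNA per cell cannot be told apart in bulk samples: fewer cells of a type and less RNA in each give the same counts. The median log2 difference was 1.41 over the members and -0.02 over all genes tested. The calls depended on scaling. The 10 most abundant genes took 12.5% to 14.5% of counts in LV and 27.2% to 29.5% in SkM, and how far this accounts for the dependence was not tested. On total counts in place of TMM factors the median of all genes moved to -0.67 and the share of called genes that were higher in SkM fell from 48.7% (3991 higher, 4211 lower) to 18.1% (1698 higher, 7689 lower). On that scale 5 members were higher and 2 lower. Log2 differences below are on TMM scaling unless stated.

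Neb, the gene for nebulin, lies on the minus strand of chromosome 2 of mm10 (52136647 to 52338798), and its count row summed 157 exons over 22489 bases. In LV it was counted at 29.8 CPM in WT replicate 1 and at 33.6, 29.7 and 22.3 CPM in the E0del/+ mice. In SkM it was at 12510 and 7888 CPM in the WT mice and at 14040, 13370 and 9050 CPM in the E0del/+ mice. Every SkM value was far above these LV values, and the log2 difference was 9.38 (SE 0.29, 95% CI 8.70 to 10.06; edgeR, adjusted p = 5.08e-07; higher in 4 of 4 mice). The within-mouse log2 ratio on total counts ran from 8.66 to 8.81 in these mice and was 1.90 in the mouse of WT LV replicate 2, where LV held 2117 CPM. The strand of the reads was not examined, and the gene 4930573O16Rik on the opposite strand within the span of Neb reached at most 0.466 CPM.

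Nebl, the gene for nebulette, had the opposite pattern. It was counted at 139 CPM in LV of WT replicate 1, at 134, 67.4 and 131 CPM in the E0del/+ LVs, and at 106.5 CPM in WT LV replicate 2. In the 5 SkM samples it had 19 counts in all, at 0.432 and 0.0572 CPM in WT and 0.431, 0.133 and 0.211 CPM in E0del/+. LV and SkM did not overlap, and E0del/+ LV replicate 2 was the lowest of the LVs. The summed rate in the 4 LVs was 486 times that in SkM (exact 95% interval 311 to 808, which covers counting error only), and the fitted log2 difference was -7.96 (SE 0.18; edgeR, adjusted p = 2.48e-07; lower in SkM in 4 of 4 mice). The count row for Nebl (chromosome 2, 17346734 to 17731068, minus strand) held 7 exons over 2980 bases. It held 2955 bases of the 7-exon GENCODE transcript Nebl-201 and 2416 bases, in 3 of 28 exons, of Nebl-202, so that most of the row is sequence the transcripts share, and the level cannot be assigned to either.

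Tpm1, Tpm2 and Tpm3 encode the α-, β- and slow-muscle tropomyosins. Tpm1 (chromosome 9, 67022593 to 67049213, minus strand, 15 exons) was at 3790 CPM in LV of WT replicate 1 and 3744, 4474 and 4235 CPM in E0del/+ LVs. In SkM it was at 6700 and 11420 CPM in WT and 6156, 6515 and 8208 CPM in E0del/+. All SkM values exceeded all LV values, and the log2 difference was 1.41 (SE 0.19, 95% CI 0.97 to 1.85; edgeR, adjusted p = 0.000479; higher in 4 of 4 mice), or 0.76 on total counts.

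Tpm2 (chromosome 4, 43514712 to 43523388, minus strand, 9 exons) was at 14.1 CPM in LV of WT replicate 1 and 19.4, 21.8 and 11.1 CPM in E0del/+ LVs. In SkM the WT samples held 2970 and 2650 CPM and the E0del/+ samples 3651, 3561 and 3240 CPM. Tissues were far apart, with a log2 difference of 8.35 (SE 0.25; edgeR, adjusted p = 4.74e-07; higher in 4 of 4 mice). In WT LV replicate 2 the level was 791.6 CPM.

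Tpm3, whose longer transcripts encode the tropomyosin of slow fibres, was at 46.85 CPM in LV of WT replicate 1 and 37.0, 60.3 and 36.1 CPM in E0del/+ LVs. In SkM it was at 121.6 and 19.7 CPM in WT and 159, 216 and 37.1 CPM in E0del/+. SkM was split, with WT replicate 2 below and E0del/+ replicate 3 within the LV range and the other 3 samples above it. The log2 difference in 4 mice was 2.02 (SE 0.34, 95% CI 1.22 to 2.82; edgeR, adjusted p = 0.00158; higher in 4 of 4 mice), but the within-mouse ratio on total counts was 0.04 in E0del/+ replicate 3 and -1.91 in WT replicate 2. With all 5 mice the log2 difference was 1.44 and did not pass the test (adjusted p = 0.062). The count row (chromosome 3, 90072651 to 90100902, plus strand, 11 exons) covered transcripts from both annotated starts of Tpm3, which the counts do not separate.

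Mice hold further tropomyosin transcripts from each gene, and the rows sum them, so a switch could be measured between genes and not between isoforms of a gene. Of the reads per kb on Tpm1, Tpm2 and Tpm3, Tpm1 took 97.9% in LV of WT replicate 1 and 98.0%, 97.6% and 98.6% in E0del/+ LVs. In SkM its share was 58.3% and 73.3% in WT and 51.05%, 52.8% and 61.6% in E0del/+. Tpm2 filled the difference, with 0.403% to 0.794% in those 4 LVs and 40.4%, 26.6%, 47.3%, 45.1% and 38.0% in SkM. Within the 4 mice the Tpm1 share went from 98.0% ± 0.387% in LV to 55.9% ± 4.90% in SkM and the Tpm2 share from 0.627% ± 0.178% to 42.7% ± 4.25%, in 4 of 4 mice each. In a two-sided exact permutation of signs, 2 of the 16 assignments gave a difference as large for each share, the fewest that 4 mice allow, so that p could not fall under 0.05. The Tpm3 share was 1.34% ± 0.269% in LV and 1.36% ± 0.764% in SkM and was higher in SkM in 2 of the 4 mice (exact p = 1.0). WT LV replicate 2 lay between the tissues, with 77.8% Tpm1, 20.7% Tpm2 and 1.53% Tpm3.

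**Figure D2:**
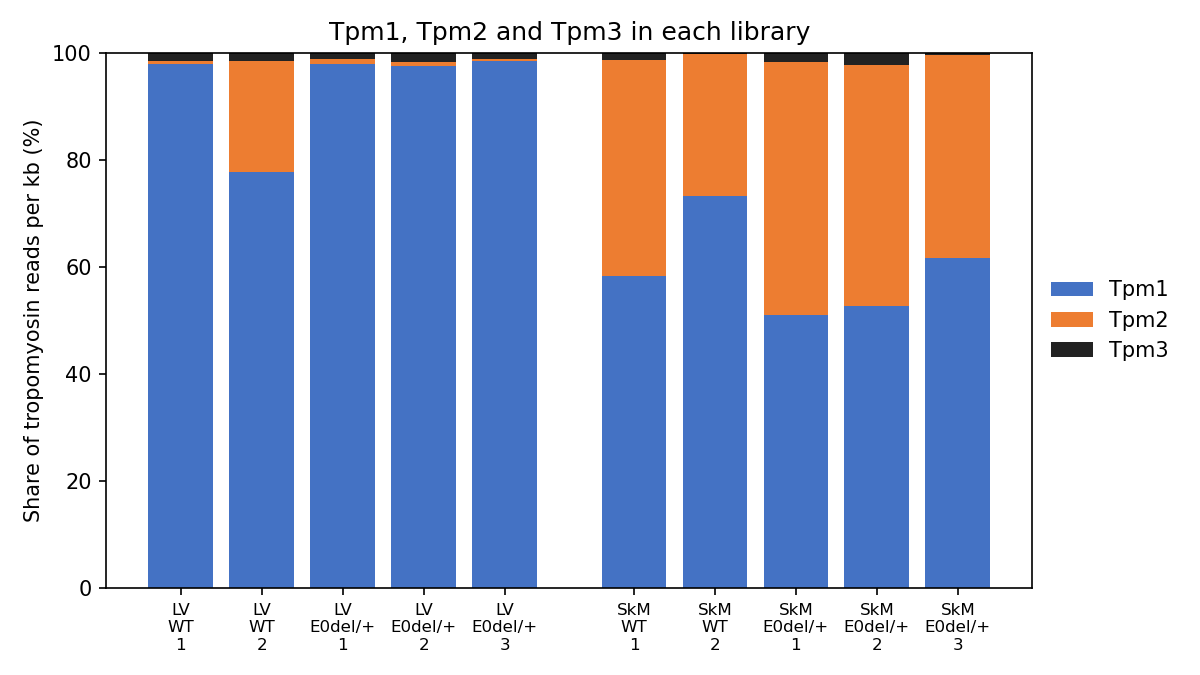
Share of tropomyosin reads per kb taken by Tpm1, Tpm2 and Tpm3 in each of the 10 libraries, in percent, each bar adding up to the whole. Tpm1 made up 97.6% to 98.6% in 4 LVs, 77.8% in WT LV replicate 2 and 51.05% to 73.3% in SkM.

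Lmod2 and Lmod3 encode the leiomodins of striated muscle, with Lmod2 known as the cardiac form. Lmod2 (chromosome 6, 24597771 to 24605414, plus strand, 3 exons) was at 594 CPM in LV of WT replicate 1 and 546, 431 and 1026 CPM in E0del/+ LVs. In SkM it was at 65.5 and 27.85 CPM in WT and 81.1, 90.7 and 55.3 CPM in E0del/+. All LVs lay above all SkM samples, E0del/+ LV replicate 3 was the highest of the LVs, and the log2 difference was -2.44 (SE 0.35, 95% CI -3.26 to -1.63; edgeR, adjusted p = 0.000665; lower in SkM in 4 of 4 mice).

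Lmod3 (chromosome 6, 97238528 to 97252780, minus strand, 3 exons) varied least between tissues in CPM. It was at 95.5 CPM in LV of WT replicate 1 and 103.1, 88.65 and 99.7 CPM in E0del/+ LVs, and at 88.9 and 80.2 CPM in WT SkM and 92.85, 101.5 and 104.3 CPM in E0del/+ SkM. The tissues overlapped, and the log2 difference of 0.65 (SE 0.15; edgeR, adjusted p = 0.00618) on TMM scaling was 0.00 on total counts, where 2 of the 4 mice were higher and 2 lower in SkM. The log2 ratio of Lmod3 to Lmod2 per kb, which does not depend on library scaling, went from -2.86 ± 0.48 in LV to 0.24 ± 0.35 in SkM, a difference of 3.10 seen in 4 of 4 mice (as large in 2 of 16 sign assignments, the fewest possible).

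Tmod1 and Tmod4 encode pointed-end caps, Tmod1 in heart and other tissues and Tmod4 in skeletal muscle. Tmod1 (chromosome 4, 46039222 to 46116032, plus strand, 10 exons) was at 272 CPM in LV of WT replicate 1 and 265, 163 and 249.8 CPM in E0del/+ LVs, and at 227, 214 and 221, 242 and 226.5 CPM in WT and E0del/+ SkM. The tissues overlapped, E0del/+ LV replicate 2 being the lowest of all, and the log2 difference of 0.62 (SE 0.22; edgeR, adjusted p = 0.0418) on TMM scaling was -0.03 on total counts, where 1 of 4 mice was higher in SkM. Without E0del/+ replicate 2 it was 0.34. Without WT replicate 1, E0del/+ replicate 1 or E0del/+ replicate 3 it was 0.75, 0.74 and 0.68 and missed the threshold (edgeR, adjusted p = 0.0534, 0.0531 and 0.068), which left 6 members higher. Tstd2, on the strand opposite to Tmod1 and overlapping it, reached at most 22.9 CPM. Where exons overlap, reads from Tstd2 may not have been told from those of Tmod1.

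Tmod4 (chromosome 3, 95124514 to 95129208, plus strand, 10 exons) was at 25.5 CPM in LV of WT replicate 1 and 28.1, 35.4 and 38.0 CPM in E0del/+ LVs. In SkM it was at 477.5 and 686 CPM in WT and 480.8, 496 and 575 CPM in E0del/+. The tissues did not overlap, and the log2 difference was 4.66 (SE 0.15; edgeR, adjusted p = 5.13e-07; higher in 4 of 4 mice). The log2 ratio of Tmod4 to Tmod1 per kb went from -1.68 ± 0.55 in LV to 2.36 ± 0.14 in SkM, a difference of 4.04 in 4 of 4 mice, and that of Neb to Nebl from -4.90 ± 0.58 to 12.54 ± 0.81, a difference of 17.44 in 4 of 4 mice, the latter resting on 2 to 7 Nebl counts per SkM library (as large in 2 of 16 sign assignments for each, the fewest possible).

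Promoter sequences were matched by symbol to RefSeq (GRCm38.p6), where 7 of the 9 members had 11 entries, and Neb and Lmod3 had none. The 250 bases before each start were searched on both strands. The E-box, CANNTG, is held by 66.2% of all 32851 promoters. The MCAT motif, spelled CATTCC, is held by 12.6% of them. The site of MEF2 was searched as CTANNNNTAG, which 3.2% hold. The TATA box was searched as TATAAA, which 12.4% hold. CArG boxes are held by 1.47%. An E-box was found in 8 of the 11 windows, an MCAT motif in 3 (a Nebl window, Tmod1 and Tpm1), a CArG box in 1 (another Nebl window) and the other motifs in 0. Shown are the promoter of Tmod4, high in SkM, that of Lmod2, high in LV, and those at both starts of Tpm3, each ending before the first annotated exon, with E-boxes in capitals. The 4 windows shown held E-boxes and no other motif of the search.
Tmod4 (chr3:95124264-95124475, plus strand): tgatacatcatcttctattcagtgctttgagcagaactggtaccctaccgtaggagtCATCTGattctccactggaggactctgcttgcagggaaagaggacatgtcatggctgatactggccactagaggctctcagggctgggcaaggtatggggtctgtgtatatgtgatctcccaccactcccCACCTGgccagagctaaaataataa
Lmod2 (chr6:24597521-24597761, plus strand): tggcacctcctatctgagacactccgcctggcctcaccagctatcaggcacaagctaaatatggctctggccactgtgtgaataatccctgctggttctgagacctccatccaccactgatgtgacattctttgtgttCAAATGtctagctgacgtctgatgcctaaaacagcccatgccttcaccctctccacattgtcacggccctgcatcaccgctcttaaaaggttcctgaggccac
Tpm3, upstream start (chr3:90072401-90072648, plus strand): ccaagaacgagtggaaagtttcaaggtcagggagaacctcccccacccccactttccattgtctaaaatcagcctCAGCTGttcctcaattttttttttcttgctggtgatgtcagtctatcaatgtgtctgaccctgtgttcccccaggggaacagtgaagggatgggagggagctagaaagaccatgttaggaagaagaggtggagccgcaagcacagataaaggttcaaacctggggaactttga
Tpm3, downstream start (chr3:90079271-90079520, plus strand): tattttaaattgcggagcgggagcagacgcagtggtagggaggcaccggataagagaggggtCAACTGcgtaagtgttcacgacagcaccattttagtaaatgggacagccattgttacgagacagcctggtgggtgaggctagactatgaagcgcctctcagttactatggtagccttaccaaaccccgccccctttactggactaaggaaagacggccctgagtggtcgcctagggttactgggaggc
The E-boxes read CATCTG and CACCTG in Tmod4, 193 and 63 bases before the start, CAAATG in Lmod2, 112 bases before it, and CAGCTG and CAACTG in Tpm3, 175 and 188 bases before the starts. A match describes the letters, and no binding was measured.

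Other genes of thin-filament assembly were taken from a list of 25, all tested. In SkM against LV 14 were higher and 8 lower, with a median log2 difference of 0.85, where 29.8% of all genes tested were higher and 31.5% lower with a median of -0.02. On total counts 12 were higher and 10 lower, where 1698 of 13375 genes were higher and 7689 lower. The largest rises were in Lmod1, a leiomodin otherwise known from smooth muscle (log2 4.40, SE 0.13, adjusted p = 4.39e-07), Klhl41, which stabilises nebulin (row Kbtbd10, log2 3.63, SE 0.25, adjusted p = 1.64e-05), and Kbtbd13, a gene of nemaline myopathy (log2 3.57, SE 0.18, adjusted p = 4.14e-06). The largest falls were in the formin Fhod3 (log2 -2.03, SE 0.19, adjusted p = 8.05e-05), Tpm4, a tropomyosin of the cytoskeleton (log2 -1.73, SE 0.19, adjusted p = 0.000152), and Tmod3, the ubiquitous tropomodulin (log2 -1.40, SE 0.16, adjusted p = 0.000195). Each of these 6 differences was seen in 4 of 4 mice.

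Of 10 actin and troponin genes, the core of the filament, 6 were higher and 4 lower in SkM, with a median of 5.07, where 61.3% of all genes were called, 29.8% higher and 31.5% lower. The same numbers of core genes were called on total counts. Fast troponin genes Tnni2 (log2 10.41, SE 0.29) and Tnnc2 (log2 10.35, SE 0.25) had the largest rises. The cardiac troponin genes Tnnt2 (log2 -8.70, SE 0.46) and Tnni3 (log2 -8.28, SE 0.35) had the largest falls, each of the 4 in 4 of 4 mice.

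Over the 9 libraries without WT LV replicate 2, 10301 genes, members included, had at least 5 CPM on average. Each member was compared with the non-members among them by Pearson r of log2 CPM plus 1, a description that mixes tissue and mouse and carries no test. Closest to Neb were Cacna1s (0.9997) and Kcnma1 (0.9994), to Tpm2 Stac3 (0.9988) and Ampd1 (0.9986), and to Tmod4 Neurl1a (0.9993) and Trdn (0.9992). Closest to Nebl were Pacsin2 (0.9994) and Uqcrc2 (0.9991), to Lmod2 Golga2 (0.9954) and Pitrm1 (0.9948), and to Tpm1 Smyd2 (0.9939) and 4933434E20Rik (0.9937). For these 6 members 98 to 2288 genes had r above 0.95. Tpm3 had 1 such gene, Sec31b (0.970), with Dpy19l3 next (0.939), and Tmod1 had 1, Pmpca (0.967), with Cand2 next (0.938). Lmod3 had 0, its closest being Mef2d (0.868) and Tti1 (0.863).

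SkM samples differed among mice in ways the genotypes do not follow. Slow-fibre genes were low in WT replicate 2 and E0del/+ replicate 3: the 6 genes of the slow-fibre list (Atp2a2 the most abundant over all libraries, Myh7 in 4 of the 5 SkM samples) summed to at most 397 CPM there and to 1563, 2266 and 2820 CPM in WT replicate 1 and E0del/+ replicates 1 and 2. Tnni1, the slow troponin I gene, was at 118.6 and 12.1 CPM in WT and 132, 206 and 22.9 CPM in E0del/+, and Tnnt1, its troponin T counterpart, at 56.6 and 5.20 CPM and 65.7, 95.8 and 13.3 CPM. Myh7, the slow myosin gene, was at 824 and 73.8 CPM in WT and 1193, 1548 and 159.7 CPM in E0del/+. Tpm3 had the same low samples. Neb and Lmod2 were also lowest in these SkM samples, and Tpm1 and Tmod4 highest. The same mice had Xist at 0.343 and 0.422 CPM in SkM, where the other 3 had 278 to 397 CPM, a difference that separates the same mice. The part of fibre type, sex and site of sampling in these levels was not tested, and Xist, Tnni1, Tnnt1 and Myh7 were singled out after their values were seen.

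**Figure D3:**
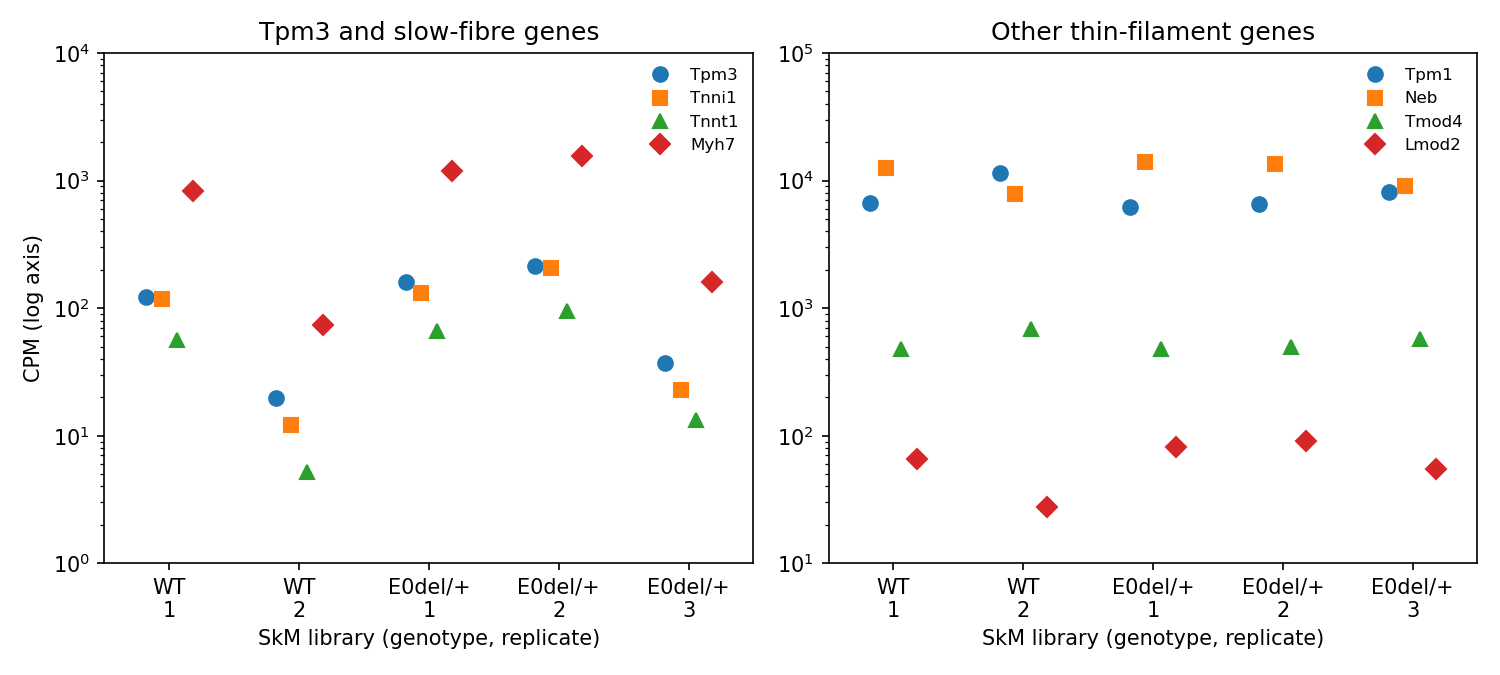
CPM on log axes in the 5 SkM samples, with Tpm3 and slow-fibre genes on the left and Tpm1, Neb, Tmod4 and Lmod2 on the right. Tpm3 was at 19.7 and 37.1 CPM in WT replicate 2 and E0del/+ replicate 3, the samples with the lowest Tnni1, Tnnt1 and Myh7, and at 121.6 to 216 CPM in the others.

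WT LV replicate 2 differed from the other LVs in some members and not in others. Neb was 73.4 times the mean of the other 4 LVs (2117 against 28.9 CPM), Tpm2 47.7 times (791.6 against 16.6 CPM) and Tmod4 5.11 times (162 against 31.75 CPM), and all 3 were above the highest of the others. Tpm3 at 73.8 CPM (1.64 times) and Tpm1 at 4650 CPM (1.15 times) were also just above it. Nebl (0.904 times), Lmod2 (0.814 times), Lmod3 (0.959 times) and Tmod1 (1.00 times) lay within the range of the other LVs. Neb, Tpm2 and Tmod4 were high in SkM, and fast-fibre genes had an excess too, with Myh4 at 18470 CPM against 70.3 to 81.7 CPM. As a share of the way from the LV mean to SkM, averaged over the 5 SkM samples, the level in WT LV replicate 2 was at 19.4% for Neb, 24.6% for Tpm2, 26.1% for Tmod4, 24.3% for Myh4 and 19.3% for Tpm1. The share for Tpm1 ran from 8.01% against WT SkM replicate 2 to 28.1% against E0del/+ SkM replicate 1. For Lmod2 and Nebl, lower in SkM, a share would depend on which LVs enter the mean, since WT LV replicate 2 lay within their range. For Tpm3 the share was 37.5%, 25.1% and 16.8% against WT SkM replicate 1 and E0del/+ SkM replicates 1 and 2, and no share can be read against WT SkM replicate 2 and E0del/+ SkM replicate 3, whose Tpm3 lay below the LV mean. Lmod3 and Tmod1 differed too little between the tissues in CPM for a share. How these transcripts came to be in the library was not tested.

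**Figure D4:**
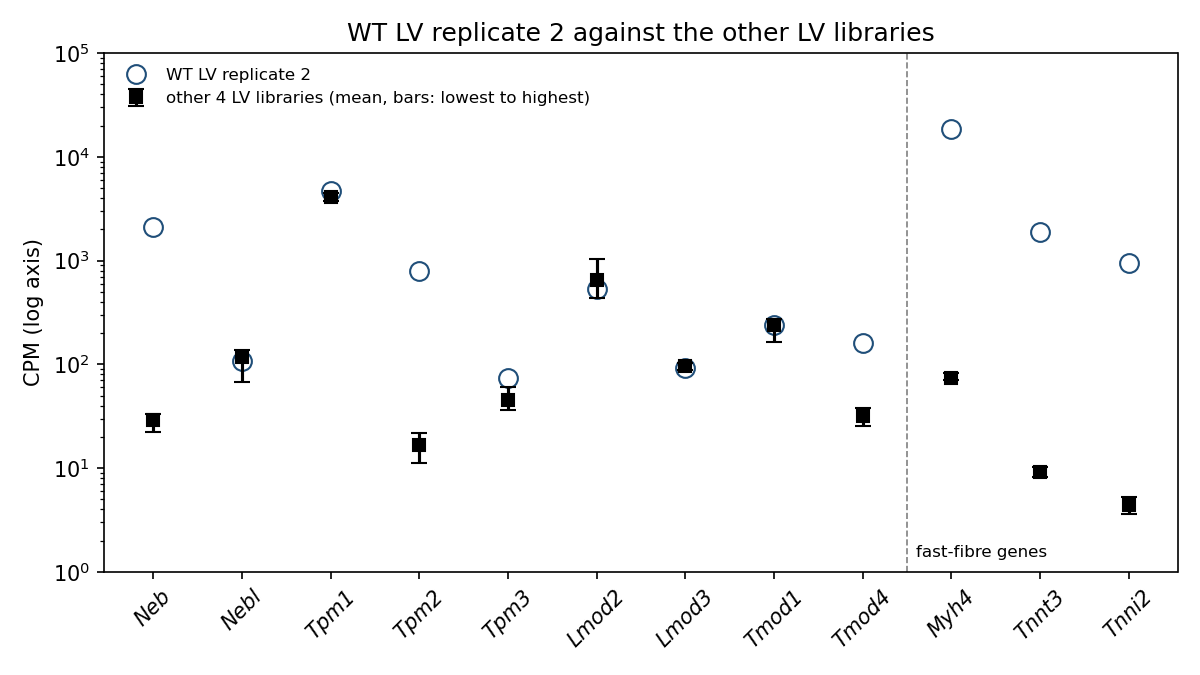
CPM on a log axis of the 9 members and 3 fast-fibre genes in WT LV replicate 2 (open circles) and in the other 4 LVs (squares for the mean, bars from lowest to highest). Neb, Tpm2, Tmod4 and the fast-fibre genes lay far above the bars, and Nebl, Lmod2, Lmod3 and Tmod1 within them.

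E0del/+ LVs were compared with WT LVs to ask whether loss of the enhancer went with a change in thin-filament genes. With all 5 LVs edgeR called 0 of 13420 genes (0%), and 564 (4.2%) had an unadjusted p under 0.05. DESeq2 called 12 genes, 1 higher and 11 lower, none of them a member, and edgeR with batch as a block called 5 genes, all lower and none a member. Of the 9 members 3 had an unadjusted p under 0.05, namely Neb (log2 -5.37, SE 1.27), Tpm2 (log2 -4.68, SE 1.20) and Tmod4 (log2 -1.58, SE 0.61), each with an adjusted p of 0.997 in edgeR. These 3 rest on WT LV replicate 2. Without it their log2 differences were -0.06 (SE 0.25), 0.30 (SE 0.31) and 0.41 (SE 0.26), and without WT LV replicate 1, which leaves replicate 2 as the sole control, they were -6.34, -5.65 and -2.39 with adjusted p of 3.41e-07, 7.86e-07 and 9.08e-05, among 578 genes called (4 higher, 574 lower) and 1630 at an unadjusted p under 0.05.

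The other members had log2 differences from -0.54 (Tpm3, SE 0.26) to 0.22 (Lmod2, SE 0.40) with all LVs. That of Tpm3 was -0.09 without WT LV replicate 2 and -0.88 without WT LV replicate 1. The groups overlapped: for 0 of the 9 members did all E0del/+ LVs lie on 1 side of both WT LVs in CPM, while 6.53% of genes had all E0del/+ values below and 8.82% above. Without WT LV replicate 2 the 9 members ranged from -0.29 (Nebl, SE 0.39) to 0.41 (Tmod4), with an adjusted p of 0.9998 each. That fit has 1 WT library, assumed to vary like the others. Between the mice of batch 1, the log2 differences on total counts were 0.17 for Neb, -0.05 for Nebl, -0.02 for Tpm1, 0.46 for Tpm2, -0.34 for Tpm3, -0.12 for Lmod2, 0.11 for Lmod3, -0.04 for Tmod1 and 0.14 for Tmod4. Between those of batch 2, whose WT is replicate 2, they were -6.16 for Neb, -5.18 for Tpm2, -2.20 for Tmod4 and -0.66 to -0.06 for the other 6. With batch as a block in edgeR Neb was at -3.12, Tpm2 at -2.52, Tmod4 at -1.16, Nebl at -0.47 and Tpm3 at -0.43. Of the rest, Tmod1 was at -0.41, Lmod2 at -0.33, Tpm1 at -0.15 and Lmod3 at -0.09. With Xist as a block Neb was at -3.09, Tpm2 at -2.66, Tmod4 at -0.84 and the other 6 at -0.47 to 0.19. Of the assembly list 0 of 25 genes were called (2 with an unadjusted p under 0.05) and of the core list 0 of 10 (5 with one). Without WT LV replicate 2 edgeR called 0 genes of all and 104 had an unadjusted p under 0.05, with 0 of the members and 0 of either list among them.

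In SkM, edgeR called 0 of 13154 genes between E0del/+ and WT (0%), 114 (0.867%) had an unadjusted p under 0.05, and DESeq2 called 0. The number at an unadjusted p under 0.05 ran from 16 without E0del/+ SkM replicate 2 to 1596 without WT SkM replicate 1, with 0 genes called in each case, and was 596 with batch as a block, which called 1 gene, not a member. Residuals, the deviations from the mean of a tissue and genotype, correlated at 0.507 and 0.307 between batch mates in SkM. Residuals of the 2 WT libraries mirror each other, so these values are not independent. Of the members 8 were tested, since Nebl was below the count filter, and 0 had an unadjusted p under 0.05. The assembly list had 0 called (1 with an unadjusted p under 0.05) and the core list 0 (0 with one). Tpm2 and Lmod3 were higher in all 3 E0del/+ samples than in both WT samples, where 4.14% of genes had all E0del/+ values above and 7.31% below. For Tpm2 the means were 3484 ± 216 CPM in E0del/+ and 2810 ± 227 CPM in WT (log2 0.32, SE 0.16, 95% CI -0.07 to 0.70), and for Lmod3 99.5 ± 5.97 CPM and 84.5 ± 6.16 CPM (log2 0.24, SE 0.13, 95% CI -0.09 to 0.58). Both had an adjusted p of 0.9998 in edgeR.

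Tpm3 in SkM averaged 137 ± 91.3 CPM in E0del/+ and 70.6 ± 72.1 CPM in WT (log2 1.06, SE 0.94, 95% CI -1.28 to 3.40), a difference that was 0.32 without WT SkM replicate 2 and 2.69 without WT SkM replicate 1. Lmod2 averaged 75.7 ± 18.3 CPM and 46.7 ± 26.6 CPM (log2 0.75, SE 0.36, 95% CI -0.14 to 1.64), and was at 0.35 and 1.32 without those samples. The other 4 tested members had log2 differences of -0.41 (Tpm1, SE 0.34) to 0.28 (Neb, SE 0.27). Without WT SkM replicate 2, Tpm1 was at 0.19, Tmod4 at 0.25 (-0.19 with it) and Neb at 0.09. Without WT SkM replicate 1 they were at -0.83, -0.53 and 0.50, and Tmod1 at -0.02 (0.06 with it). Within batch 1 the log2 differences on total counts were 0.39 for Tpm3, 0.31 for Lmod2, 0.30 for Tpm2, 0.06 for Lmod3, 0.17 for Neb, -0.12 for Tpm1, -0.04 for Tmod1 and 0.01 for Tmod4. Within batch 2, whose WT mouse had the low slow-fibre genes, they were 3.45, 1.70, 0.43, 0.34, 0.76, -0.81, 0.17 and -0.47 in the same order. With batch as a block in edgeR the log2 difference was 1.90 for Tpm3, 1.00 for Lmod2 and 0.46 for Neb. With Xist (above or below 100 CPM) as a block it was 0.78, 0.67 and 0.18, and -0.23 for Tpm1 and -0.07 for Tmod4.

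**Figure D5:**
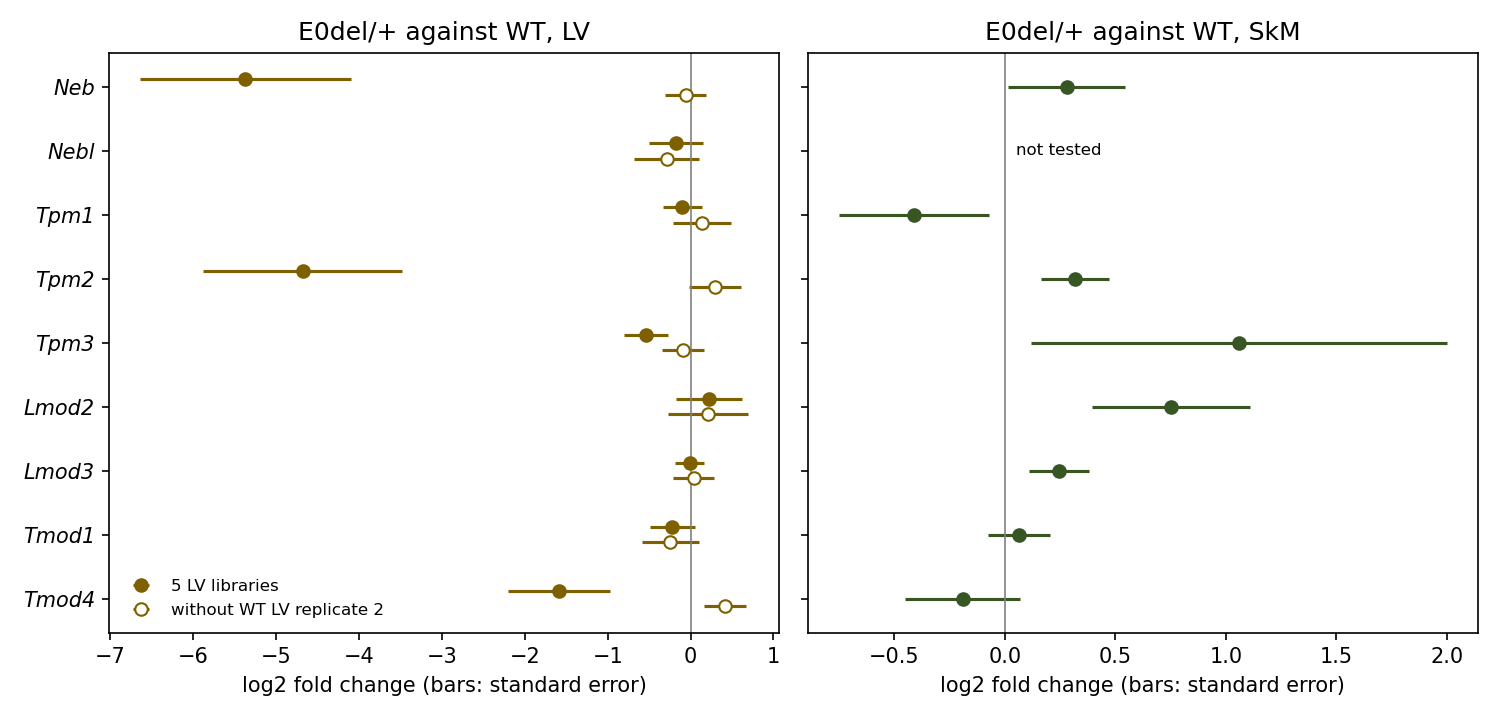
Log2 fold change of each member, E0del/+ against WT, in LV (left, filled for all 5 LVs and open without WT LV replicate 2) and in SkM (right), with bars of 1 standard error. Neb, Tpm2 and Tmod4 in LV moved from -5.37, -4.68 and -1.58 to -0.06, 0.30 and 0.41 when WT LV replicate 2 was left out.

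Paralog shares and ratios were also compared between genotypes, 6 in each tissue. All 12 had overlapping groups and exact label permutation p of 0.2 to 1.0 (two-sided), where 2 against 3 mice cannot go below 0.1. In SkM the Tpm1 share was 65.8% ± 10.6% in WT and 55.2% ± 5.68% in E0del/+, and the Tpm2 share 33.5% ± 9.78% and 43.5% ± 4.85% (exact p = 0.3 for each). The differences of -10.6 and 9.99 percentage points were -3.15 and 3.08 without WT SkM replicate 2 and -18.1 and 16.9 without WT SkM replicate 1. In LV the Tpm1 share was 87.9% ± 14.2% in WT and 98.1% ± 0.467% in E0del/+ (exact p = 0.2), and the difference of 10.2 percentage points was 0.129 without WT LV replicate 2.

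Whether the effect of genotype differed between the tissues was tested as an interaction over all 10 libraries. With edgeR 0 of 14327 genes were called (0%) and 477 (3.33%) had an unadjusted p under 0.05, among them the members Neb (log2 5.62, SE 1.70) and Tpm2 (log2 4.96, SE 1.58), both with an adjusted p of 1.0. The number at an unadjusted p under 0.05 ran from 129 without WT LV replicate 2 to 1848 without WT SkM replicate 1. With mouse as a block edgeR called 0 genes and 238 had an unadjusted p under 0.05. Neb was then at 3.47 and Tpm2 at 3.03. DESeq2 called 17 genes, with 1 member, Neb (log2 5.66, adjusted p = 0.046; 0.046 to 1.0 over the alternatives with all libraries). Without WT LV replicate 2 edgeR called 0 genes, and Neb was at 0.31 (SE 0.48) and Tpm2 at -0.01 (SE 0.41). Without WT LV replicate 1 it called 154, with Neb at 6.59 (adjusted p = 0.000252) and Tpm2 at 5.93 (adjusted p = 0.000216). Of the assembly list 0 were called (1 with an unadjusted p under 0.05) and of the core list 0 (3 with one), and without WT LV replicate 2 0 of the members and of both lists had an unadjusted p under 0.05.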

How the data were processed

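The deposited read counts per gene of 10 libraries (LV and SkM of 5 mice, 11010021 to 17484873 counts, median 14050602.5) were used, and the deposited RPKM values, made by the authors from the same counts, summed exon length and library total, were recalculated from the counts to within 4.73e-11. The submitters name mm10 and STAR, and the versions, the counting tool and the annotation are not given in the sources used here. CPM are counts scaled to the library's total over genes. Differences were fitted over all genes with edgeR 4.0.16 in R 4.3.3 (filterByExpr, TMM factors, quasi-likelihood test, Benjamini-Hochberg adjustment over all genes tested, threshold 0.05), with mouse as a block for SkM against LV in 4 mice and without a block between genotypes. LV and SkM were paired by the animal in the library name, and batches were those of the labels, which equal the replicate number. Residuals correlated at 0.507 and 0.307 between the batch mates in SkM, at 0.022 and -0.132 in LV, and at -0.0906 to 0.0855 between the tissues of a mouse. Since the residuals of 2 WT libraries of a tissue mirror each other, these values are not independent. Shares and ratios used reads per kb, with exact two-sided permutation tests (Python 3.11.15, scipy 1.17.1).

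The members and the gene lists were chosen with earlier results of these data known. Named were the 9 members, up to 6 genes of the assembly list and 4 of the core list with the largest called differences, the 2 genes most like each member among those of at least 5 CPM on average, and the most abundant gene of each cell type list. Alternatives were DESeq2 1.42.0 and its size factors, total counts, no filter on counts or at least 10 counts in every library, other blocks (batch, mouse, Xist above 100 CPM or below), all 5 mice, 1 fit over 10 libraries, and each library or mouse left out. The paralog comparison between genotypes with a batch block was chosen after seeing the data. The procedure was tested on simulated data. At the spread estimated from these libraries it missed most 2-fold differences between genotypes within a tissue and in the interaction. A count of 0 genes called there does not show that none differed. Promoters came from RefSeq and transcript models from GENCODE M21.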

Additional observations from a re-analysis of the deposited data

Results flagged for a closer look

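Each member was looked at for a library far from the rest in the 5 LVs and in the 5 SkM samples, 18 groups in all, and 4 held a sample whose gap to its nearest neighbour was large for the range of the group. Chance gives about 1 in 20 groups where groups are independent. Here the groups share libraries and WT LV replicate 2 had been set apart beforehand, so the count cannot be set against chance. Neb in WT LV replicate 2 was at 2117 CPM, and its gap to the next LV was 0.995 of the range. Tpm2 in the same library was at 791.6 CPM (gap 0.986 of the range), and Tmod4 at 162.3 CPM (gap 0.908 of the range). Fast-fibre genes were also high in that library, at 26970 CPM in sum against 113 to 128 CPM in the other LVs, and their part in these 3 values was not tested. Lmod2 in E0del/+ LV replicate 3 was at 1026 CPM (gap 0.726 of the range), and the other 4 LVs were at 431 to 594 CPM.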

How the results depend on the processing

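For SkM against LV, 6 members (Neb, Nebl, Tpm1, Tpm2, Lmod2 and Tmod4) kept their direction and adjusted p under 0.05 under every alternative that tested them. On total counts 1698 genes were higher and 7689 lower, Lmod3 was at 0.00 and Tmod1 at -0.03. Requiring 10 counts in every library dropped Nebl, leaving 1 member lower, and with all 5 mice Tpm3 was at 1.44 and its read share differed by -0.257 percentage points. Leaving out a mouse gave 6 to 7 members higher, Tmod1 at 0.34 to 0.75 and a Tpm3 share difference of -0.150 to 0.260. Without the replicate block, that is without pairing by mouse, exact p was 0.0286 for the Tpm1 share (-42.09), Tpm2 share (42.07) and the log2 ratios Neb to Nebl (17.44), Lmod3 to Lmod2 (3.10) and Tmod4 to Tmod1 (4.04), since more relabellings are possible.

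Between genotypes in LV, DESeq2 gave 1 gene higher and 11 lower, and the batch block 5 lower, with Lmod2 at -0.33 and the log2 ratio of Lmod3 to Lmod2 at 0.23 (chosen after seeing the data). Lmod3 was at 0.05 on total counts and 0.01 with Xist as a block. The cause was not tested. Leaving out a library gave 0 to 4 genes higher, 0 to 574 lower and 0 to 3 members lower, with Neb at -6.34 to -0.06, Nebl -0.36 to 0.12, Tpm1 -0.29 to 0.13, Tpm2 -5.65 to 0.30, Tpm3 -0.88 to -0.09, Lmod2 -0.30 to 0.50, Lmod3 -0.08 to 0.11, Tmod1 -0.36 to 0.01 and Tmod4 -2.39 to 0.41. The Tpm2 share difference ran from -20.05 to 0.0791, and the log2 ratio differences were -6.22 to 0.31 (Neb to Nebl), -0.31 to 0.23 (Lmod3 to Lmod2) and -2.16 to 0.70 (Tmod4 to Tmod1). In SkM the batch block gave 1 gene lower, and leaving out a library gave Tpm1 -0.83 to 0.19, Tmod1 -0.02 to 0.16, Tmod4 -0.53 to 0.25, Neb to Nebl -1.41 to 0.84 and Tmod4 to Tmod1 -0.51 to 0.0946. For the interaction DESeq2 gave 17 genes and 1 member higher, and leaving out a library 0 to 154 genes and 0 to 2 members. With 2 WT mice, 1 of whose LVs stood apart, and 1 to 7 counts of Nebl per SkM library, a difference of genotype that missed the test is not shown to be absent, also where it exceeded its SE.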

Other observations

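E0del/+ LV replicate 2 had the lowest Nebl (67.4 CPM), Tmod1 (163 CPM) and Lmod2 (431 CPM) of the 5 LVs. It also had the highest endothelial sum, 1458 CPM against 733 to 1064 CPM, and the highest Nppa, 582 CPM against 197 to 433 CPM. Its Tnnt2 (9751 CPM), Tnni3 (3022 CPM) and Tnnc1 (1945 CPM) were the highest of the LVs, and its Xirp2 (453 CPM) and Mypn (129 CPM) the lowest. These genes were singled out after their values were seen, and the part of tissue composition was not tested.

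Among SkM samples adipose genes ranged widely, with a sum of 1243 and 29.3 CPM in WT replicates 1 and 2 and 337, 175 and 1319 CPM in E0del/+ replicates 1 to 3. The order did not follow that of the slow-fibre genes. Acta1, the skeletal actin gene, was at 433.7 CPM in LV of WT replicate 1 and 593, 581 and 1482 CPM in E0del/+ LVs. It was at 9480 CPM in WT LV replicate 2. Apart from that library, E0del/+ LV replicate 3 was the highest, and it also had the highest Lmod2.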
